A study of Mus musculus with 6 samples.

Results

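Cd80, Cd86, Cd40, Cd274, Pdcd1lg2, Cd28, Ctla4 and Icos are 8 genes of T cell costimulation and immune checkpoints, and they were read here by gene name from 12 probes (30 spots) among the 28477 gene names of an Agilent mouse array. They were measured in the obstructed and the unobstructed kidney of 3 CD-1 mice (495, 485 and 512), with 1 array for each kidney. In the ligated group the left ureter had been tied completely in the living animal. In the contralateral group the untied right kidney of the same animals is the control, so it is not a kidney from an unoperated mouse. All 6 kidneys come from the CD-1 stock, which is outbred, and age, sex and time from ligation to sampling are not given in the sources used here. The labels speak of kidney in the tissue entry and of primary cells in the cell type entry, and which was extracted could not be told from them. All 12 listed tubule and podocyte markers were well above background on every array. A probe of 7 of the 8 members could be tested, and that of Ctla4 could not.

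Recognition of antigen alone does not fully activate a T cell. CD80 and CD86 on antigen-presenting cells give the second signal through CD28, and CTLA4 binds the same ligands and restrains the response. ICOS is a relative of CD28 that T cells show after activation, CD40 receives help from T cells on macrophages, dendritic cells, B cells and some epithelia, and PD-L1 (Cd274) and PD-L2 (Pdcd1lg2) engage the inhibitory receptor PD-1.

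The readout of each gene rests on short probes, and some of them are printed here 5′ to 3′, as the scanner tables give them. The Cd86 probe shown is the second one of that gene, which did not stand for Cd86 in the fit across genes and gave the largest fitted change among the member probes. Cd40 is shown as the member with repeated spots that was above background on every array, and Cd80 as the other ligand of CD28. Each is 60 bases long.
Cd86, second probe: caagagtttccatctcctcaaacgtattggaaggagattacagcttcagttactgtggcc
Cd40: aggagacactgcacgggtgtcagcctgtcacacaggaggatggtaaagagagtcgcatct
Cd80: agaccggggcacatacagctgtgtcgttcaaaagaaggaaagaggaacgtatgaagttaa
The Cd86 probe shown lies on the minus strand of chromosome 16 from 36534534 to 36534593 in the mm8 build, and the Cd86 probe in the fit lies 10875 bases away, from 36523659 to 36523718. The Cd40 probe lies on the plus strand of chromosome 2 from 164762006 to 164762065. The Cd80 probe lies on the plus strand of chromosome 16 from 38393393 to 38393452, with a second Cd80 probe starting 21454 bases further on. Exon annotation of the mm8 build was not used here.

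The probes of the receptors on T cells follow as stretches of 30 bases, because 1 of the 2 Cd28 probes was above background on no array, while both Icos probes were above it on every array. Capitals mark AATAAA, the usual polyadenylation signal.
Cd28, probe in the fit: ctacatggtaagatggaccagaaattgcaa
Cd28, second probe: tagcacaattacAATAAAtgcattttcttt
Ctla4: acagagccagaatgtgaaaagcaatttcag
Icos, probe in the fit: taactgccagtgtttgttttcatctcctgt
Icos, second probe: tagaaccaacatgctctcttccaattccta
The Cd28 probe in the fit lies on chromosome 1 from 60717381 to 60717440, and the second from 60708569 to 60708628. The Ctla4 probe lies on chromosome 1 from 60859210 to 60859269, and the Icos probes from 60944773 to 60944832 and from 60942805 to 60942864, all on the plus strand. The second Cd28 probe was the only member probe to hold AATAAA, as written and on the strand given, and 4.78% of all 41174 probes hold it.

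Values below are processed signals, a linear intensity after Agilent's background subtraction and before any scaling between arrays. Changes are log2 differences, ligated minus contralateral, after each array was divided by its 75th percentile, which was 671 to 1105 in contralateral and 1068 to 1433 in ligated kidneys. They are given ± SE from a limma fit with the mouse as a block (n = 3 pairs) and with p adjusted over 19598 genes. Genes with an adjusted p under 0.05 were called. The scanner's flag for spots well above background was set for 65.7% to 69.5% of spots on contralateral arrays and for 72.1% to 74.7% on ligated arrays. Both kidneys of mice 495 and 485 shared 1 slide and those of mouse 512 another, so each within-mouse difference is also a difference within a slide.

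Cd40, Cd274 and Icos were above background on all 6 arrays and were called higher in the ligated kidney. Among all genes above background on all 6 arrays, 12.5% were called higher. Cd86 was also called higher and was below background on 1 contralateral array, and of the genes below background on at least 1 contralateral array 45% were called higher. Cd86 thus passed the filter only through the ligated group, and its call is not counted as support. Cd80, Pdcd1lg2 and Cd28 were below background on each contralateral array and above it on each ligated one. They passed the filter only through the ligated group and therefore had to differ, and 66.1% of genes with that pattern were called higher, so nothing is read from the number of their calls. Every ligated value of Cd86, Cd40, Cd274 and Icos lay above every contralateral value, a pattern found in 24.7% of all genes tested, and 34.3% of those tested were higher in the ligated kidney of each mouse. No member was called lower. Over all genes tested, 16% were called higher, 14.7% lower and 30.7% in either direction.

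**Figure D1:**
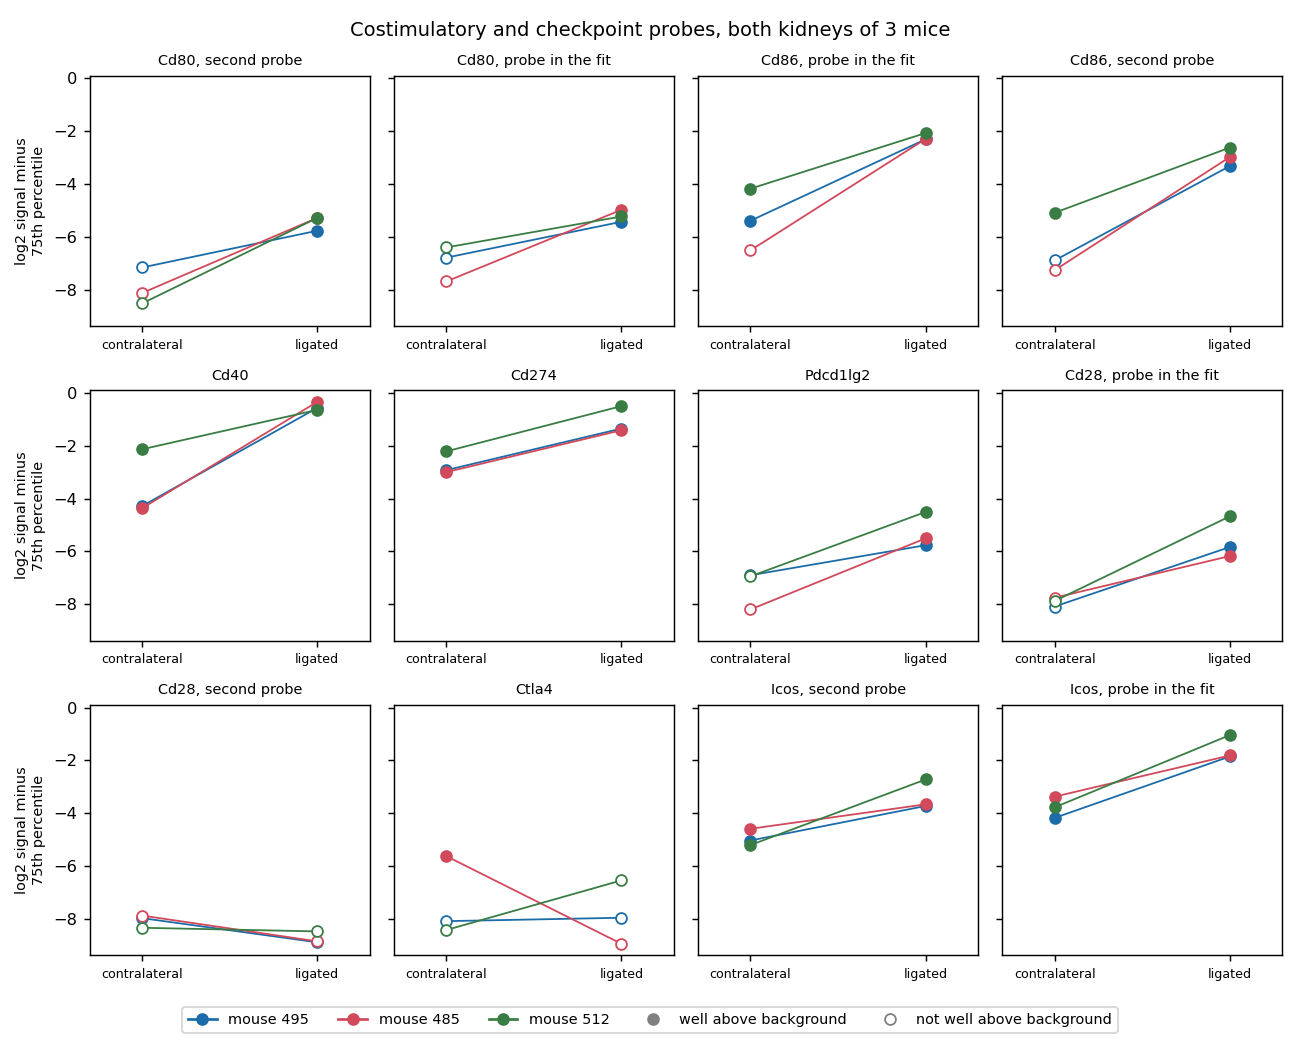
Log2 processed signal minus the 75th percentile of the array for all 12 probes of the 8 genes in the contralateral and the ligated kidney, with 1 line per mouse. Filled points were well above background and open points were not. Lines rise in every mouse for 10 probes, and the exceptions are the second Cd28 probe and Ctla4.

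Cd86, a ligand of CD28 and CTLA4, was higher in the ligated kidney by both of its probes. The probe in the fit gave signals of 17.7 in mouse 495, 7.37 in mouse 485 and 61.1 in mouse 512 on the contralateral side, and of 276, 293 and 255 on the ligated side. The ligated kidneys lay close together and the contralateral kidneys far apart, with mouse 512 highest, and the groups did not overlap. On the scaled log2 scale the contralateral level was -5.36 ± 1.17 and the ligated level -2.22 ± 0.13 (SD, n = 3). Cd86 was higher by 3.14 ± 0.45 in the ligated kidney (adjusted p = 0.0271), at least 7.63-fold when the contralateral array without a signal over background is set to that array's lowest level above background. The differences within mice 495, 485 and 512 were 3.09, 4.22 and 2.11, and without the contralateral kidney of mouse 512 (no mouse block) the change was 3.73.

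The second Cd86 probe, the one printed above, gave 6.23, 4.37 and 32.5 in contralateral and 137, 182 and 174 in ligated kidneys. Only mouse 512 was above background among its contralateral arrays. It was higher by 3.44 ± 0.39 in a fit with each probe on its own (adjusted p = 0.0231), and 15.3% of all 29093 probes were called higher in that fit. Both probes thus gave the same order of the mice, with the smallest difference in mouse 512.

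Cd80, the other ligand of CD28, had no contralateral value above background. The probe in the fit gave 6.71, 3.25 and 13.1 in contralateral kidneys and 31.6, 45.6 and 28.5 in ligated kidneys of mice 495, 485 and 512. The lowest signal marked as above background was 11.3 to 14.2 on the contralateral arrays. That the groups did not overlap was all but fixed by the filter, so nothing is read from it. The fitted difference was 1.75 ± 0.37 (adjusted p = 0.0386), and as a bound Cd80 was at least 1.79-fold higher in the ligated kidney. The second Cd80 probe gave 5.18, 2.40 and 3.00 in contralateral and 25, 36.8 and 27.4 in ligated kidneys, with a fitted difference of 2.49 ± 0.41 (adjusted p = 0.0297) and a bound of at least 1.53-fold. The 2 probes placed the mice in a different order, since the smallest difference was in mouse 512 (1.17) by the first and in mouse 495 (1.39) by the second. Normexp background correction, run with an offset of 50 added to every signal, gave a Cd80 difference of -0.16 (adjusted p = 0.627). That offset exceeds every processed signal of both Cd80 probes and draws such low values together. The sign thus differed between the processed signal and normexp, and which step of the normexp run turned it was not tested.

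Cd40, the receptor through which T cells stimulate antigen-presenting cells, has 10 spots on each array. Mean signals over these spots were 38.2 (mouse 495), 32.7 (485) and 252 (512) for contralateral and 922, 1138 and 687 for ligated kidneys. Every ligated kidney was above every contralateral kidney, yet the contralateral kidney of mouse 512 stood 2.19 log2 units above the mean of the other contralateral kidneys. Repeated spots on 1 array differed by 2.39% to 10.2% (coefficient of variation), which covers spot noise and not labelling, hybridisation or the animal. Cd40 was higher by 3.08 ± 0.58 in the ligated kidney, or 8.46-fold (adjusted p = 0.0335). The differences were 3.72 and 4.03 in mice 495 and 485 and 1.49 in mouse 512. Without mouse 512 the Cd40 change was 3.87, and 3.81 without its contralateral kidney alone (no mouse block).

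**Figure D2:**
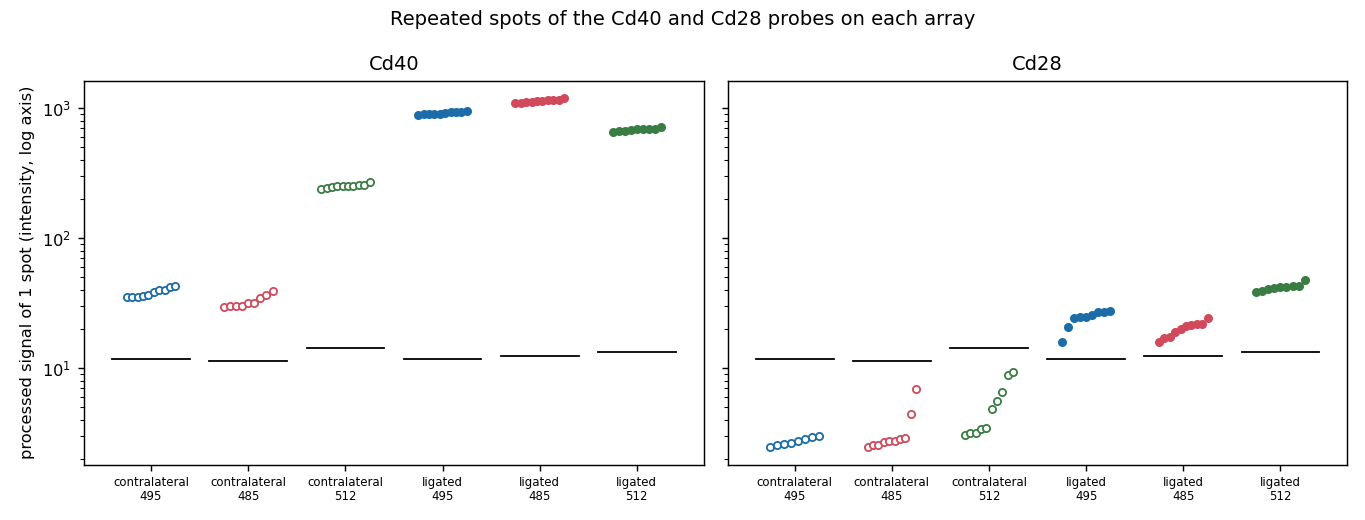
Processed signal of each repeated spot of the Cd40 probe (left) and the Cd28 probe in the fit (right) on the 6 arrays, on a log axis. Open points are contralateral and filled points ligated kidneys, colours are mice, and each black bar is the lowest signal well above background on that array. Cd40 spots lie above the bar on every array with a narrow spread, while Cd28 spots lie below it on contralateral and above it on ligated arrays.

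Both ligands of PD-1 were above background in every ligated kidney, and Cd274 also in every contralateral one. Cd274 gave 97.9, 84.1 and 239 in contralateral kidneys and 536, 540 and 758 in ligated kidneys of mice 495, 485 and 512. The groups did not overlap, and mouse 512 was highest in both. Its within-mouse differences were 1.58, 1.59 and 1.72 (SD 0.077). Cd274 was higher by 1.63 ± 0.14, or 3.09-fold (adjusted p = 0.0220). Its probe lies on chromosome 19 from 29453870 to 29453929.

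Pdcd1lg2, the next gene along chromosome 19 (probe from 29536533 to 29536592), gave 6.20, 2.29 and 8.98 in contralateral kidneys, none of them above background. In ligated kidneys it gave 25.1, 31.6 and 47.0, all above background. The fitted difference was 2.09 ± 0.36 (adjusted p = 0.0317), and as a bound it was at least 1.74-fold higher in the ligated kidney. Within mice 495, 485 and 512 the differences were 1.14, 2.69 and 2.44. With normexp the Pdcd1lg2 difference was -0.091 (adjusted p = 0.838).

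Among the receptors on T cells, Icos was measured on both sides. Its probe in the fit gave 41.0, 64.8 and 80.7 in contralateral kidneys and 378, 408 and 519 in ligated kidneys of mice 495, 485 and 512. The groups did not overlap. Icos was higher by 2.21 ± 0.28, or 4.62-fold (adjusted p = 0.0241), with differences of 2.33, 1.56 and 2.74. The second Icos probe gave 22.7, 27.9 and 29.98 against 103, 113 and 162, a difference of 1.57 ± 0.35 (2.97-fold, adjusted p = 0.0420). By both probes the largest difference was in mouse 512 and the smallest in mouse 485.

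Cd28 was near the limit of detection. The spots of its probe in the fit (8 to 10 kept on an array) averaged 2.73, 3.29 and 5.15 in contralateral kidneys, where 0 spots were above background. In ligated kidneys they averaged 24.2, 20.0 and 42.0, and every spot kept (9, 10 and 9) was above background. The fitted difference was 2.35 ± 0.36 (adjusted p = 0.0284), at least 1.41-fold as a bound, with differences of 2.25, 1.58 and 3.21 in mice 495, 485 and 512. The order of the mice was that of Icos. With normexp the Cd28 difference was -0.11 (adjusted p = 0.782).

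The second Cd28 probe, which starts 8812 bases before the first, gave 2.86 to 3.42 on all 6 arrays and was above background on none of them. It was not tested, and its mean difference of -0.68 compares values below background. It is the member probe with the lowest GC content, at 25%, and it holds the hexamer marked above.

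Ctla4, the inhibitory counterpart of Cd28, was not detected as a change. It gave 2.73, 13.6 and 3.22 in contralateral and 5.48, 2.90 and 11.5 in ligated kidneys of mice 495, 485 and 512. Only the contralateral kidney of mouse 485 was above background, and the groups overlapped. The differences were 0.13, -3.32 and 1.88, which point in both directions, and Ctla4 did not pass the filter. A transcript at the level this single spot cannot separate from background would not be seen.

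Each of the 7 calls rests on both mice 495 and 485. Without mouse 495 the adjusted p of the 7 members was 0.118 to 0.147, and without mouse 485 it was 0.145 to 0.172, with every difference still above 0 (1.65 to 3.16 and 1.27 to 2.73). In those fits of 2 pairs 0 genes of the whole array were called, against 4980 and 5005 at an unadjusted p under 0.05 by limma, among them all 7 members. Of these 7, Cd80, Pdcd1lg2 and Cd28 had to differ to be tested. Without mouse 512 the 4 members with a contralateral value above background (Cd86, Cd40, Cd274 and Icos) were still called. That fit called 11118 of 20224 genes, 5423 of them higher, against 6019 of 19598 with all mice, so little is read from these calls. Cd86 also passed the filter only through the ligated group.

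**Figure D3:**
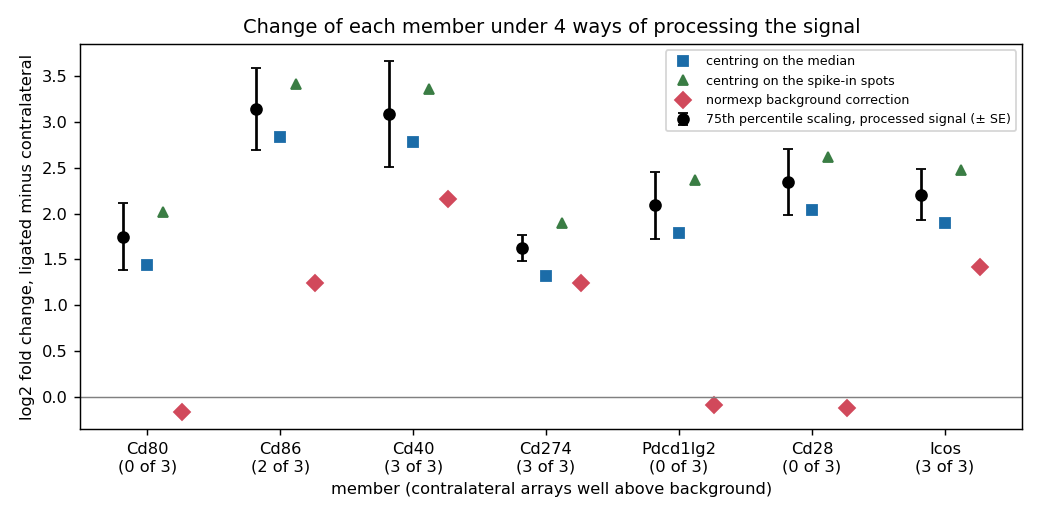
Log2 fold change of the 7 tested members, ligated minus contralateral, with 75th percentile scaling (black circles, bars ± SE, n = 3 pairs), with centring on the median or on spike-in spots, and with normexp background correction. The number of contralateral arrays above background stands under each gene. Both centrings keep all 7 above 0, and normexp puts Cd80, Pdcd1lg2 and Cd28 slightly below 0 while Cd86, Cd40, Cd274 and Icos stay above it.

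The members fell into different orders across the mice. Cd86 and Cd40 differed least in mouse 512, whose contralateral kidney was 1.77 (Cd86) and 2.19 (Cd40) log2 units above the mean of the other contralateral kidneys. Its ligated kidney differed from the other ligated kidneys by only 0.23 and -0.19. Cd28 and Icos differed most in mouse 512, whose contralateral kidney stood 0.04 (Cd28) and -0.0015 (Icos) from the others and whose ligated kidney stood 1.33 and 0.79 above them. Cd274 was higher in both kidneys of mouse 512, by 0.75 and 0.88.

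Most markers of macrophages and dendritic cells were called higher, while the lists of lymphocyte markers were mixed. The part of these cells in the results was not tested. In bulk RNA, more cells of a type and more RNA per cell cannot be told apart. Of 13 macrophage markers 11 were called higher, with a median change of 3.13 against -0.01 over all genes tested, and 10 were called with normexp. Their summed level, in units of each array's 75th percentile, was 19.9 to 93.9 in contralateral and 222 to 258 in ligated kidneys. Mrc1, the mannose receptor, changed most of them (3.61 ± 0.58, and 4.39 without mouse 512). Of 12 dendritic cell markers 10 were called higher (median 1.90). Of these, 5 were among the 6 markers above background on all arrays, 2 were above it on no contralateral array, and with normexp 5 of the 12 were called. The sum was 0.87 to 2.60 against 5.44 to 7.37. Ccr7, the receptor that guides dendritic and T cells to lymph nodes, was higher by 3.75 ± 0.39, at least 8.30-fold, and by 4.58 without the contralateral kidney of mouse 512 (no mouse block). Clec9a and Siglech were above background on no contralateral array.

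Of 13 T cell markers 7 were called higher and 1, Cd8b1, lower, with a median of 2.40. Among the 9 above background on all arrays 3 were called higher and the median was 0.46, and with normexp 4 of the 13 were called in either direction. Their sum was 2.60 to 5.98 in contralateral and 3.97 to 6.13 in ligated kidneys, so the sums overlapped. Cd8b1 alone gave 1.64 to 4.92 of the contralateral sums and 0.98 to 1.16 of the ligated ones. Without it the sums were 0.96 to 1.12 and 2.81 to 5.15. Cd8b1 is the 1 marker called lower and was left out after its value was seen, so these sums do not count as a separation of the groups. The chain Cd247 of the T cell receptor complex was higher by 3.35 ± 0.41, at least 6.58-fold by the processed signal, against 0.78 with normexp (adjusted p = 0.111). Cd3d was higher by 3.16 ± 0.19 and Cd3g by 3.09 ± 0.25, while the fitted values of Cd3e (0.46 ± 0.25, adjusted p = 0.212) and Cd4 (0.08 ± 0.18, adjusted p = 0.758) were not called. Cd8b1, Cd3d, Cd3g, Cd3e and Cd4 were picked out after their values were seen. Ubash3a and Trat1 were above background on no contralateral array.

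Of 10 B cell markers 9 were tested and 4 called higher (median 2.07), 1 of them among the 4 above background on all arrays, and with normexp 1 was called. They had a sum of 0.40 to 0.85 in contralateral and 1.63 to 7.42 in ligated kidneys. Cd22, an inhibitory B cell receptor, was higher by 3.08 ± 0.43 (at least 6.47-fold by the processed signal, but 0.99 and adjusted p = 0.133 with normexp), and Blk was above background on no contralateral array. Of the 7 regulatory T cell markers, Foxp3, Il2ra and Gpr83 were above background on ligated arrays alone, and Il10 and Ccr4 on no array. Those 3 had to differ to be tested, so their calls are not counted as support. Of the other tested members of the list Ikzf2 was called higher and Ikzf4 lower, and with normexp 0 of the 5 tested were called by limma, against 1 at an unadjusted p under 0.05. The summed level of the list overlapped between groups (0.14 to 0.30 against 0.16 to 0.23). The fitted difference of Gpr83 was 2.32 ± 0.33, at least 1.80-fold by the processed signal, and 0.00036 with normexp (adjusted p = 0.999).

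Of 10 regulators of helper T cell subsets, 6 were tested and 3 were called higher, with a median of 1.12. Among the 5 above background on all arrays 2 were called higher, with a median of 0.20. Cxcr5, which directs cells to follicles, was higher by 3.39 ± 0.64, at least 6.26-fold by the processed signal, and by 2.59 without mouse 512. With normexp it was at 0.77 (adjusted p = 0.334), and with no filter its adjusted p was 0.050046. The cytokines Il21, Il4 and Il17a were above background on no array. Of 12 tubule and podocyte markers 6 were called lower and 0 higher by limma (also 0 at an unadjusted p under 0.05), with a median of -1.10. The collecting duct water channel Aqp2 fell by 2.88 ± 0.15 on the log2 scale. In the fit without mouse 512, which called 11118 of 20224 genes, 10 of these 12 markers were called. Their sum was 263 to 787 in contralateral and 230 to 256 in ligated kidneys, so the lowest contralateral sum was just above the highest ligated one.

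The order of the mice in these lists can be set beside that of the members. The median difference within mice 495, 485 and 512 was 3.69, 3.81 and 1.69 for macrophage markers and 2.05, 2.53 and 1.36 for dendritic cell markers, smallest in mouse 512 as for Cd86 and Cd40. It was 1.74, 1.92 and 2.79 for T cell markers and 1.12, 1.5 and 3.51 for B cell markers, largest in mouse 512 as for Cd28 and Icos. The contralateral kidney of mouse 512 stood 1.98 above the other contralateral kidneys in the median macrophage marker, 1.22 in dendritic cell markers, -0.36 in T cell markers and -1.65 in tubule and podocyte markers. These orders are over 3 mice and were not tested, and that of Cd28 rests on contralateral values below background.

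**Figure D4:**
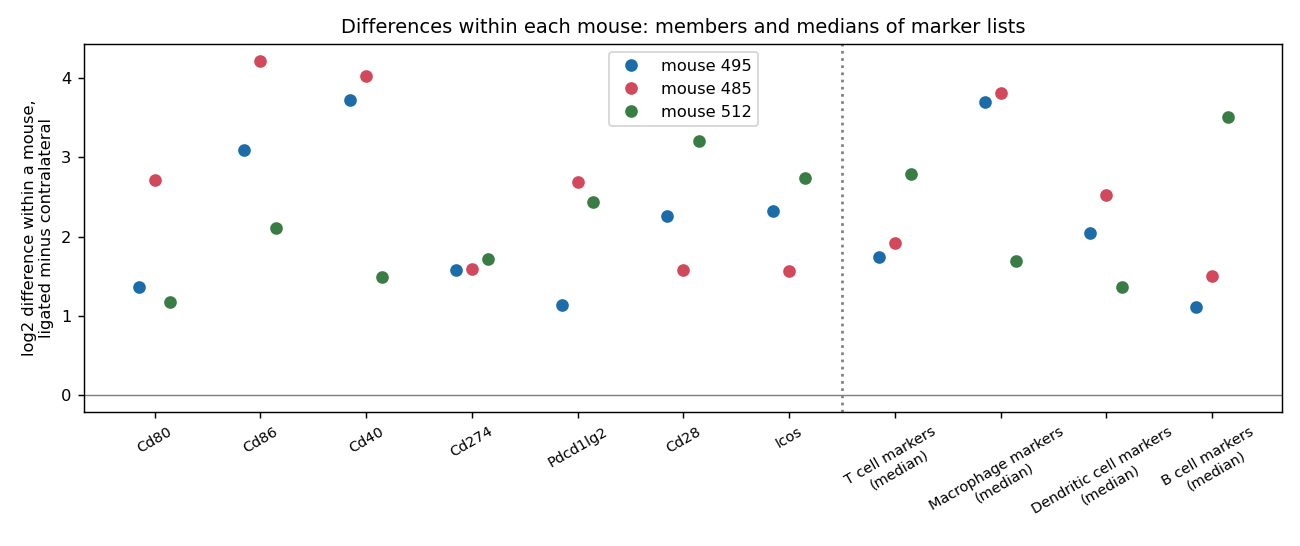
Log2 difference between the ligated and the contralateral kidney within each mouse for the 7 tested members (left of the dotted line) and the median difference of 4 leukocyte marker lists (right). Mouse 512 is lowest for Cd86, Cd40, the Cd80 probe in the fit and the macrophage and dendritic cell lists. It is highest for Cd274, Cd28, Icos and the T and B cell lists. The second Cd80 probe, not shown here, put mouse 512 highest (3.24). Differences of Cd274 spanned only 1.58 to 1.72, and those of Cd80 and Cd28 rest on contralateral values below background.

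Genes that work with these molecules were read in 6 lists. Of 12 other ligands of the B7 kind and their relatives, 11 were on the array and tested, 5 were called higher and 0 lower by limma (also 0 at an unadjusted p under 0.05), with a median of 1.52. Among the 9 above background on all arrays 4 were called higher, with a median of 1.36. Cd48, a ligand of the receptor 2B4, was higher by 3.06 ± 0.42 (8.32-fold, adjusted p = 0.0262), with 3.53 and 3.72 in mice 495 and 485 and 1.93 in mouse 512, and by 3.71 without the contralateral kidney of that mouse (no mouse block). Cd276 (B7-H3) was higher by 2.93 ± 0.61 (adjusted p = 0.0382), at least 5.66-fold. Its call was lost without the replicate block (adjusted p = 0.0720) and with no filter (0.0542), and its value was 3.77 without mouse 512, 4.08 without the contralateral kidney of mouse 512 (no mouse block) and 0.96 with normexp. Icosl, the ligand of ICOS, was higher by 1.36 ± 0.33 (2.56-fold, adjusted p = 0.0483), and is given here as the partner of Icos.

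Of 12 other checkpoint receptors 11 were on the array, 10 were tested, 8 were called higher and 0 lower by limma (again 0 at an unadjusted p), with a median of 2.46, and 5 were called with normexp. Among the 6 above background on all arrays 5 were called higher, with a median of 2.19. Pdcd1 and Cd96 were not among these 6 and passed the filter only through the ligated group. Pdcd1, which encodes PD-1, the receptor of both PD-1 ligands above, changed most, by 3.77 ± 0.33 (adjusted p = 0.0220) and at least 11.1-fold, with differences of 2.96, 4.44 and 3.92, and by 1.43 with normexp. Cd96, a receptor of T and natural killer cells, was higher by 3.70 ± 0.29 (adjusted p = 0.0220), at least 6.52-fold by the processed signal, against 0.79 with normexp (adjusted p = 0.0966). Cd160 was above background on no array.

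Of 12 costimulatory ligands and receptors of the TNF superfamily 9 were tested, 4 were called higher and 0 lower by limma (again 0 at an unadjusted p), with a median of 1.52, and 2 were called with normexp. Among the 6 above background on all arrays 3 were called higher, with a median of 1.05. Tnfrsf18 (GITR) was higher by 2.92 ± 0.25 (7.59-fold), and Cd27, above background on no contralateral array, had a fitted difference of 2.31 ± 0.22, at least 2.55-fold by the processed signal, against 0.082 with normexp (adjusted p = 0.843). Cd40lg, the ligand of CD40, was above background on no array, so the ligand and its receptor gave different readouts in the same kidneys. A Cd40lg transcript below the array's limit of detection would not be seen.

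Of 23 genes of CD28 and T cell receptor signalling 15 were called higher and 1, Lrba, lower, with a median of 0.99. Vav1, an exchange factor, was higher by 2.90 ± 0.41 (7.45-fold, and 3.59 on the log2 scale without the contralateral kidney of mouse 512, no mouse block) and the kinase Lck by 2.86 ± 0.25 (7.26-fold). Lrba, whose product keeps CTLA4 from breakdown, fell by 0.86 ± 0.20 on the log2 scale (adjusted p = 0.0449) and was picked out after its value was seen.

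Of 16 genes of CD40 and NF-kappa-B signalling 15 were tested, 5 were called higher and 1, the kinase Chuk, lower, with a median of 0.74. Tnfaip3 (A20, a brake on NF-kappa-B) was higher by 2.60 ± 0.64 (adjusted p = 0.0493) and Birc3 by 2.39 ± 0.58 (adjusted p = 0.0477). With no filter both calls were lost (adjusted p = 0.0684 and 0.0667), and quantile normalization ended that of Tnfaip3 (0.0504). Without mouse 512 the list had 11 calls in place of 6, with Tnfaip3 at 3.47 and Birc3 at 3.18. Calls over all genes rose as well, from 6019 of 19598 to 11118 of 20224. Without mouse 485 Tnfaip3 was at 2.00. The median difference of this list was 1.08, 1.1 and 0.37 in mice 495, 485 and 512, lowest in mouse 512 as for Cd40. Mouse 512 was also lowest for B7 ligands (1.07), checkpoint receptors (2.17), the TNF superfamily (0.76) and the interferon gamma route (0.56). Of the partner lists only CD28 and T cell receptor signalling (1.20, 0.89 and 0.91) had another order. Mouse 512 was not highest there either. Of 13 genes on the interferon gamma route, which is known to induce Cd274, 6 were called higher and 1, Cmtm4, lower, with a median of 0.68, and without mouse 512 the list had 11 calls in place of 7. Ifng itself was higher by 2.85 ± 0.22, at least 3.38-fold by the processed signal, against 0.38 with normexp (adjusted p = 0.49993), and Irf8 by 2.12 ± 0.32 (4.35-fold). Irf1, a transcription factor of this route that was picked out after its value was seen, was at 2.06 ± 0.52 (adjusted p = 0.0517).

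**Figure D5:**
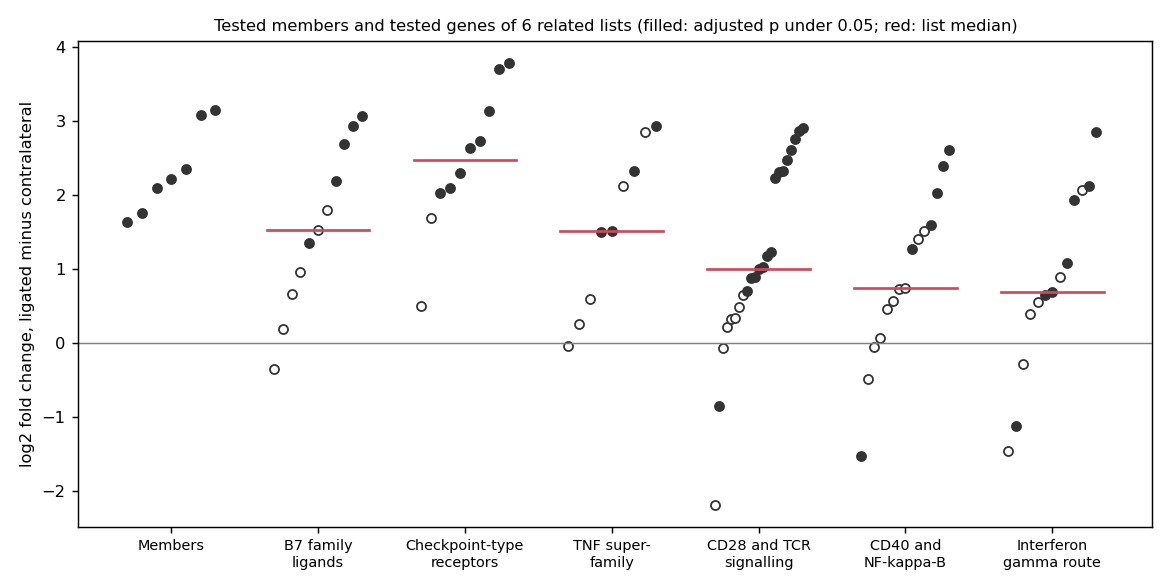
Log2 fold change, ligated minus contralateral, of the 7 tested members and of the tested genes of 6 lists of partner genes. Each point is a gene, filled where its adjusted p was under 0.05, and red bars are list medians, which run from 0.68 for the interferon gamma route to 2.46 for checkpoint receptors.

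The genes whose 6 centred log2 values lay nearest those of each member were picked by the smallest root mean square difference over the 6 arrays, which share libraries and the same contrast. For Cd40 these were Clic6 (0.0895) and Ifi202b (0.117), and for Cd86 Lhfp (0.108) and Asb4 (0.133). For Cd274 they were Barx2 (0.0768) and Tnfrsf4 (0.0871), and for Cd80 Ebf4 (0.144) and Frmd4a (0.156). For Icos they were Il21r (0.176) and Gpr83 (0.187), for Cd28 H2-Eb2 (0.132) and Septin1 (0.165), and for Pdcd1lg2 Tmem71 (0.238) and D16Ertd472e (0.243).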

How the data were processed

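Total RNA was labelled with Cy3 and hybridised to arrays of design 014868, per the labels. The authors deposited scanner tables whose processed signal is a linear intensity, background-subtracted per the file headers, from Agilent Feature Extraction (10.5.1.1 in the headers, 9.1 in the submitters' processing notes). The authors' deposited value table is a ratio, the processed signal divided by the array median (99% of spots within 0.00289% of that factor, medians 1). Flags are values of 0 or 1, and positions are mm8, per the file headers.

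Control spots and spots flagged as outliers (43 to 79 of 43379 per array) were left out, and 0 were saturated. Log2 signals minus the array's 75th percentile were averaged over spots of a probe. A probe was above background with at least 0.5 of its spots flagged so. Probes above background on all 3 arrays of a group were kept, and the brightest stood for its gene. Of 41174 probes, 24367 were renamed by RefSeq accession and 16807 carry the deposited name (6307 of them current). Of all probes, 24 had a flagged array and were dropped.

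limma 3.58.1 in R 4.3.3 tested 19598 genes, two-sided, blocking on mouse, with p adjusted by Benjamini-Hochberg (2 residual and 2.06 prior degrees of freedom). The scripts were checked on simulated data. Mouse numbers in the labels give the pairing. Deviations of the 2 kidneys of a mouse from their group means correlated at r = 0.194, 0.481 and 0.271 (mice 495, 485 and 512), against at most 0.0183 between mice. Such deviations cancel over the arrays of a group, so positive values within mice push those between mice below them. The contrast is therefore partly built in and is no test of the pairing. Bounds written "at least" hold for the processed signal alone and set a contralateral value below background to the higher of itself and the array's lowest level above background. Arrays number 6, which limits the precision.

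The members and the gene lists were chosen with earlier results of these data known. All members were named, with the 2 called genes of largest change in each partner list, the 1 in each marker list, and the 2 nearest patterns of each member. Other genes named were picked after their values were seen. Scaling, background correction, filter, probe choice, block, variance trend and arrays left out were varied. Normexp was run with an offset of 50 added to every signal, which draws low signals together on the log2 scale. Btnl2 and Tigit were not matched on the array.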

Additional observations from a re-analysis of the deposited data

How the results depend on the processing

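Cd40, Cd274 and Icos kept their direction under every alternative run and were called with normexp background correction. Cd86 did so in every run that tested it and was called with normexp. It passed the filter only through the ligated group, however, so its direction is not counted as support. Cd80, Pdcd1lg2 and Cd28 passed the filter only through the ligated group and had to differ, so their direction in the other runs is not counted as support. With normexp Cd80 (-0.16), Pdcd1lg2 (-0.091) and Cd28 (-0.11) turned below 0, as did H2-Eb2 (-0.17) and Septin1 (-0.20). Normexp also moved calls of the T cell markers from 8 to 4, dendritic cell from 10 to 5, B cell from 4 to 1, regulatory T cell from 5 to 0, checkpoint receptors from 8 to 5 and TNF superfamily from 4 to 2. The filter for all 6 arrays left 3 members to test, all called. Quantile normalization ended the calls of Cd80 (adjusted p = 0.0664) and Pdcd1lg2 (0.0560), and no filter those of Cd80 (0.0566) and Cd40 (0.050001). The count of genes called was 6019, and in separate fits 3040 with spike-in centring, 2682 with no filter and 11178 without the contralateral kidney of mouse 512. Leaving out a mouse gave 0 to 11118 genes and 0 to 7 members. Centring moved the split of calls: 2566 higher and 5941 lower with median centring (median of all genes -0.32), and 2363 and 677 with spike-in centring (0.26). Without the replicate block 5555 genes were called, among them Cd86, Cd40, Cd274 and Icos (limma adjusted p 0.0182 to 0.0283), so the pairing changed none of these 4 calls. Of these 4, Cd86 was tested only because of the ligated group. Values of the other genes named kept both direction and call in 380 cases, kept direction but lost the call in 84, and turned in 2. Signals under about the lowest level marked above background (11.3 to 14.2) limit what can be said of Cd80, Pdcd1lg2, Cd28 and Ctla4 in the contralateral kidney.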

Other observations

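The members sit in clusters, and their neighbours on the chromosome can be read from the same arrays. In the RefSeq gene order Cd28, Ctla4 and Icos are adjacent on chromosome 1, and Cd274 and Pdcd1lg2 are adjacent on chromosome 19. Taking 2 genes on each side of every cluster or single member gave 20 genes, chosen by position alone, of which 19 were tested, 2 were called higher and 2 lower. Beside the PD-1 ligands, Plgrkt was at 0.14 ± 0.14 (adjusted p = 0.449) and Ric1 at 0.08 ± 0.14 (adjusted p = 0.659). Beside the CD28 family, Raph1 was at 0.10 ± 0.23 (adjusted p = 0.732) and Pard3b at 0.72 ± 0.19 (adjusted p = 0.0554). The flanking genes called higher were Nrp2, a semaphorin and VEGF co-receptor near Icos (1.96 ± 0.28, adjusted p = 0.0267), and Pla1a, a phospholipase near Cd80 (1.89 ± 0.16, adjusted p = 0.0220). Those called lower were Rln1, the hormone relaxin near Cd274 (-2.69 ± 0.25, adjusted p = 0.0220), and Timmdc1, a mitochondrial assembly factor near Cd80 (-1.00 ± 0.18, adjusted p = 0.0326).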
